A study of Mus musculus with 4 samples.

Results

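Excitation-contraction coupling is the step by which a muscle fibre turns an action potential into a rise of calcium, and the 10 genes described here encode its core: the ryanodine receptor Ryr1, the voltage sensor subunits Cacna1s, Cacnb1 and Cacng1, the calcium pumps Atp2a1 and Atp2a2, the store proteins Casq1 and Casq2, and the small pump regulators Sln and Pln. The members were chosen by their gene symbol in the platform annotation, which gave 22 of the 45101 probe sets on the array. Transcript levels had been measured in total RNA from the left hemi-diaphragm of the mouse, with 2 arrays of the region that holds the synapses and 2 of the region without them. The labels give no strain, age, genotype or treatment, so the groups differ in what is known by region alone. They do not say whether a region's arrays hold RNA of separate animals or of pools, so a p-value here rests on array-to-array spread that could be purely technical. The titles end in e1_le1 or e1_le2, so all arrays share the e1, and the labels explain neither tag. The last digit, 1 or 2, is used here as the replicate number. Values below are given in the order replicate 1, replicate 2.

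At the triad, a T-tubule lies between the ends of 2 sacs of the sarcoplasmic reticulum. The voltage sensor in the tubule membrane opens the ryanodine receptor of the store by direct contact, calcium bound to calsequestrin leaves the store, and the pump then returns it. Fast fibres are known for Atp2a1 and Casq1, while Atp2a2, Casq2 and Pln are known from slow fibres and the heart. Nerve-muscle synapses occupy a small part of each fibre, and triads are known along its whole length.

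None of the members was called different between the regions. Intensities were compared as log2 values, after raising those under a floor of 159 to it. Of the 22 probe sets 20 had a mean log2 value above the filter on dim signal, 8.87, and are called measured here. The test was limma's moderated fit, with p-values adjusted over all probe sets. It called 0 of these 20 at an adjusted p under 0.05, against 0.00378% of all 26480 probe sets tested called higher and 0.00755% called lower in the synaptic region. So few calls were made anywhere on the array that the absence of one here says little, and the differences and their intervals are the result. At an unadjusted p under 0.05 the limma count was also 0 of 20, where the share over all probe sets was 0.986%, and the smallest unadjusted limma p of a member was 0.0910. The log2 differences, synaptic minus non-synaptic, ran from -0.44 to 0.56 with a median of -0.01, and the median over all probe sets tested was -0.01 too. The median size of the difference, without its sign, was 0.11 for the members and 0.14 over all probe sets. The 95% confidence interval covered 0 for 20 of the 20, and for 15 of them it lay within 1 log2 unit, a 2-fold change, on both sides. For the other 5 the fit used here, which leaves out the replicate number, does not exclude a 2-fold change. The regions did not overlap for 4 of the 20 probe sets: the synaptic region was the higher for 1 (5%) and the lower for 3 (15%), beside 9.89% and 9.98% of all probe sets. These shares are near the background and are no result about the members.

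**Figure D1:**
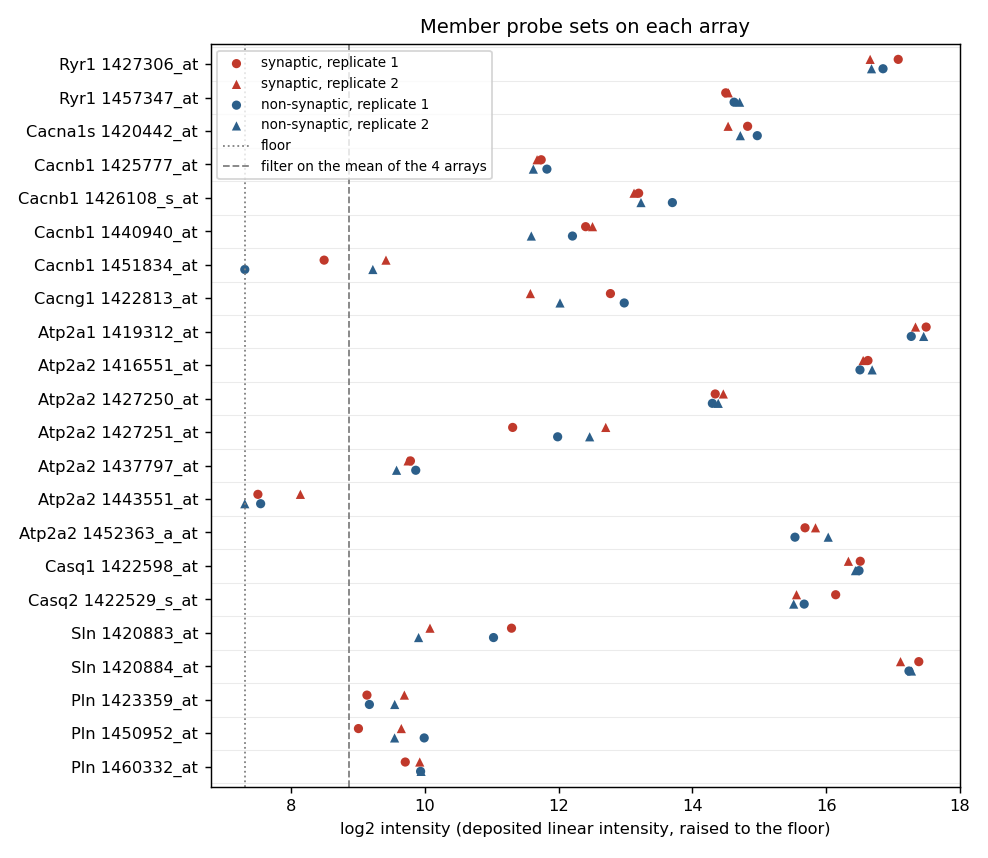
The log2 intensity of the 22 member probe sets on each of the 4 arrays, by region (colour) and replicate number (shape), with the floor and the filter on the mean as lines. Most rows show the regions intermixed, and the probe sets Cacnb1 1451834_at and Atp2a2 1443551_at have means to the left of the filter.

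**Figure D2:**
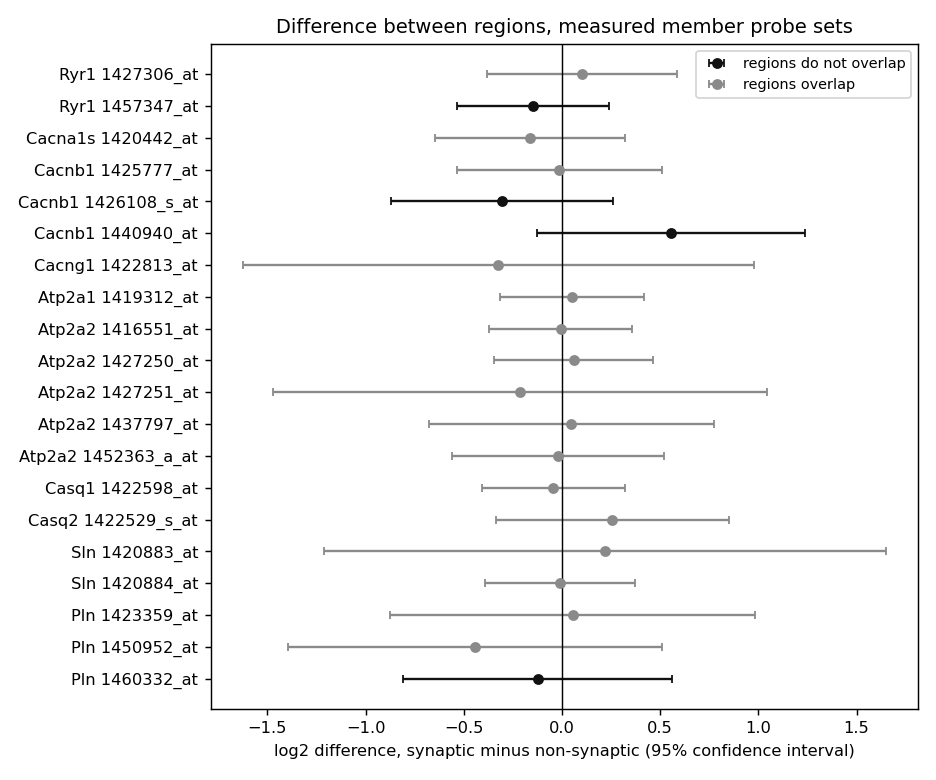
The log2 difference between regions for the 20 measured member probe sets, as points with 95% confidence intervals from the moderated limma fit (2 arrays per region). The intervals of all 20 cross 0, and the 4 probe sets in black are those whose regions do not overlap.

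The tissue read as skeletal muscle in both regions. The 9 general fibre markers, among them the creatine kinase Ckm and the skeletal actin Acta1, had a lowest intensity of 74718 on any array, far above the floor, and a median difference of 0.01. Schwann cell markers were higher in the synaptic region, with 6 of 6 measured genes set apart and a summed intensity of 103786 and 112702 against 29530 and 31349, and Mbp, the myelin basic protein gene, passed the test (adjusted p = 0.0326). Fat cell markers were lower, with 4 of 4 set apart and sums of 538 and 997 against 20268 and 14683. The adiponectin gene Adipoq passed the test (limma adjusted p = 0.0326). It read 186 and 189 on the synaptic arrays, dimmer than the filter, and passed that filter through the non-synaptic arrays. For such a gene the filter favours regions set apart. The lowest Schwann cell intensity, 260, was dimmer than the filter as well, so the counts set apart may be favoured in part in both lists. The lowest fat cell intensity, 18.5, was under the floor, which bounds the size of such differences. Left out as below the filter were 1 Schwann cell gene and 2 fat cell genes. Over all genes, 10.6% had both synaptic arrays above both others and 9.85% below. In bulk RNA, fewer cells of a type and less RNA per cell cannot be told apart. Without either non-synaptic array both calls were lost, as 0 probe sets then passed. The small differences of the members thus stand beside large ones in markers of these other cells, whose part in the members' values was not tested. The labels give no method by which the arrays were scaled, but their 2% trimmed means were 2500 each, so a shift common to most of the transcriptome is out of reach.

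Sequence upstream of the start was available in RefSeq (GRCm38.p6) for 7 of the 10 genes, in 8 windows since Cacnb1 has a pair of starts. Atp2a2, Cacng1 and Sln were not matched. The 250 bases before the start were searched on both strands for the E-box, CANNTG, which myogenic factors bind, and for the N-box, CCGGAA, which ETS factors bind in genes of the synapse. The N-box was present in 0 of the 8 windows and in 12.03% of the 32851 windows of the table. The E-box was present in 6 of the 8, against 66.2% of all windows, with 2 each for Cacna1s, Casq1 and Casq2 (2 or more in 31.8% of all windows). No E-box overlapped an N-box. The windows of the genes that have a probe set with the regions apart, Ryr1, Cacnb1 and Pln, are shown so that their motif content can be compared, 5′ to 3′ along the gene, ending at the base before the start, with E-boxes in capitals. They lie at chr7:29125152-29125401 on the minus strand, chr11:98022628-98022877 on the minus strand (the outer start of Cacnb1) and chr10:53337436-53337685 on the plus strand.
Ryr1: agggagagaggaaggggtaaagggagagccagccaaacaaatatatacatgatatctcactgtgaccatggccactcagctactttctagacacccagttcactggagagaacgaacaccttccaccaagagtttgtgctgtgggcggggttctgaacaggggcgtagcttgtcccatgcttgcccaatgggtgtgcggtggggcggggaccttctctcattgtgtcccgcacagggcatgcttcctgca
Cacnb1: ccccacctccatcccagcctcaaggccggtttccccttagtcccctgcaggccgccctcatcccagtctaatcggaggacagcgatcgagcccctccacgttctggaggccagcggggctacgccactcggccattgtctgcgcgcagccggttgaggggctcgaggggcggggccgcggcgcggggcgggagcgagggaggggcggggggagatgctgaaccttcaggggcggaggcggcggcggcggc
Pln: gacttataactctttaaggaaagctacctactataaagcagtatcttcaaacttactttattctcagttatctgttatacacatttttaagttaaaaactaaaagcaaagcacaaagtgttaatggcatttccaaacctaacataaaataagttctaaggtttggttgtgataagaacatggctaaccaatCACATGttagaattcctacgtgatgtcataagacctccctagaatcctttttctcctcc
The window of Ryr1 and the outer window of Cacnb1 held no E-box, the inner window of Cacnb1 held 1, and that of Pln held 1, which begins 59 bases before the start. The guanine and cytosine share was 54.8% for Ryr1, 73.2% for Cacnb1 and 32.8% for Pln. A match is a description of letters and says nothing of binding in these samples.

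Ryr1 encodes the calcium release channel of the skeletal muscle store. On its brighter probe set, 1427306_at, the intensity was 138171 and 103301 in the synaptic region and 118037 and 104780 in the non-synaptic region. Synaptic replicate 1 was the highest and synaptic replicate 2 the lowest, so the regions overlapped. The log2 difference was 0.10 ± 0.19 (SE, n = 2 arrays per region), with a 95% interval of -0.38 to 0.59, or 0.769- to 1.501-fold. The second probe set, 1457347_at, read 23146 and 23764 in the synaptic region and 25241 and 26729 in the other. Here both synaptic arrays were below both non-synaptic arrays, by a small margin. Its log2 difference was -0.15 ± 0.15, with an interval of -0.53 to 0.24 that also covers 0, so the probe sets of Ryr1 disagreed in sign and neither differed from 0 beyond its error.

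The voltage sensor is a calcium channel complex in the T-tubule membrane. Its pore subunit Cacna1s, which senses the voltage, had intensities of 29034 and 23724 in the synaptic region and 32090 and 26930 in the non-synaptic region. The ranges overlapped, with replicate 1 above replicate 2 in both regions. The log2 difference was -0.16 ± 0.19, with an interval of -0.65 to 0.32. Cacng1, the gamma subunit of the skeletal muscle channel, read 7012 and 3061 against 8091 and 4159. Here the gap between replicates of one region was wider than that between regions, and the regions overlapped. Its difference of -0.32 ± 0.51 had an interval of -1.62 to 0.98, from 0.324- to 1.97-fold.

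Cacnb1, the cytoplasmic beta subunit that holds the pore subunit at the triad, was the member whose probe sets differed most. Probe set 1426108_s_at read 9392 and 8954 in the synaptic region and 13320 and 9623 in the other. Both synaptic arrays were lower, non-synaptic replicate 1 stood above the other arrays, and the difference was -0.30 ± 0.22 (interval -0.87 to 0.26). Probe set 1440940_at went the opposite way, with 5424 and 5824 against 4732 and 3090. Both synaptic arrays were higher, and the difference of 0.56 ± 0.27 (interval -0.13 to 1.24) was the largest of the 20. The third, 1425777_at, read 3423 and 3280 against 3632 and 3155, overlapped, and differed by -0.01 ± 0.20. The remaining probe set, 1451834_at, lay below the filter with intensities of 361 and 686 against 40.6 and 599, and 1 array was under the floor. The files do not give the part of the transcript that each probe set reads.

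The log2 ratio of 1440940_at to 1426108_s_at within an array does not depend on the array's scaling. The pair was chosen after the values were seen, as the highest and the lowest difference of Cacnb1, so its ratio describes that choice and supports nothing further. Relative to the non-synaptic mean, the ratio was 0.77 and 0.95 on the synaptic arrays and 0.07 and -0.07 on the non-synaptic arrays. The shift between the region means was 0.86, given with no test. Which of these probe sets follows the gene was not tested.

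The sarcoplasmic reticulum calcium pumps refill the store. Atp2a1, the pump of fast fibres, read 184503 and 165248 in the synaptic region and 158140 and 179838 in the non-synaptic region. Each region held 1 higher and 1 lower array, and the ranges overlapped. The difference was 0.05 ± 0.14, and its interval of -0.32 to 0.42 leaves room for 0.804- to 1.33-fold. On its brightest probe set, 1416551_at, Atp2a2, the pump of slow fibres and heart, read 100994 and 96090 against 92973 and 105461. The synaptic values lay between the non-synaptic ones, and the difference was -0.01 ± 0.14 (interval -0.37 to 0.36). The other measured probe sets of Atp2a2 differed by 0.06 ± 0.16 (1427250_at), -0.22 ± 0.49 (1427251_at), 0.05 ± 0.28 (1437797_at) and -0.02 ± 0.21 (1452363_a_at), with the regions overlapping in each. On 1427251_at the replicates of a region were far apart, with 2547 and 6680 against 4059 and 5655. The sixth, 1443551_at, lay below the filter, between 123 and 283.

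Calsequestrin binds calcium inside the store. Casq1, the form of fast fibres, read 93249 and 82475 in the synaptic region and 92074 and 88708 in the non-synaptic region. The non-synaptic values fell between the synaptic ones, and the difference of -0.04 ± 0.14 had an interval of -0.41 to 0.32. Casq2, the form known from slow fibres and heart, read 72286 and 48183 against 52167 and 46801. Synaptic replicate 1 stood above the other 3 arrays, which lay close together, and the regions overlapped. The difference was 0.26 ± 0.23, with an interval of -0.34 to 0.85.

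Sarcolipin and phospholamban are short membrane proteins that hold back the pump. Sln, for sarcolipin, read 170989 and 141496 in the synaptic region and 154434 and 158501 in the other on probe set 1420884_at. The non-synaptic values lay between the synaptic ones, and the difference was -0.01 ± 0.15 (interval -0.39 to 0.37). Its second probe set, 1420883_at, read 2517 and 1082 against 2089 and 961. Replicate 1 stood well above replicate 2 in both regions, and the difference of 0.22 ± 0.56 had the widest interval of the members, -1.21 to 1.65.

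Pln, for phospholamban, was read by 3 probe sets of low signal. On 1460332_at the values were 837 and 973 in the synaptic region and 981 and 986 in the non-synaptic region. Both synaptic arrays were lower, the nearer of them by a few units, and the difference was -0.12 ± 0.27 (interval -0.81 to 0.56). Probe set 1450952_at read 516 and 804 against 1019 and 750, overlapped, and differed by -0.44 ± 0.37 (interval -1.39 to 0.51). Probe set 1423359_at read 563 and 830 against 577 and 751, overlapped, and differed by 0.05 ± 0.36. The values were above the floor on each array and between 516 and 1019, where the interval still allows a change of up to 1.98-fold upward on 1423359_at and down to 0.381-fold on 1450952_at.

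The probe sets of Atp2a1 (1419312_at) and of Sln (1420884_at) ranked at 5 and 10 by mean intensity among 45037 probe sets, Ryr1 (1427306_at) at 83 and Atp2a2 (1416551_at) at 146. The highest intensity of any probe set was 202114, on synaptic replicate 1. Whether such bright signal still follows the amount of RNA in proportion was not tested. The standard error ran from 0.14 to 0.56 over the members, with a median of 0.22 against 0.29 over all probe sets tested.

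Fast and slow isoforms of the pump and of calsequestrin, and the pump regulators Sln and Pln, were compared within each array. Only the change of a ratio between arrays can be read there. The log2 ratio of Atp2a1 to Atp2a2, relative to its non-synaptic mean, was 0.10 and 0.01 on the synaptic arrays and -0.002 and 0.002 on the others. The regions did not overlap, the shift was 0.06, about 1.04-fold, and it was 0.01 without synaptic replicate 1. The ratio of Casq1 to Casq2 was -0.50 and -0.10 on the synaptic arrays and -0.05 and 0.05 on the non-synaptic arrays. The regions did not overlap, but most of the shift of -0.30 came from synaptic replicate 1, and it was -0.10 without that array. The ratio of Sln to Pln was 0.36 and -0.13 on the synaptic arrays and -0.02 and 0.02 on the others, a shift of 0.12 that became -0.13 without synaptic replicate 1 and 0.36 without synaptic replicate 2. Exact two-sided permutation tests of the 3 planned ratios gave p = 0.33, 0.33 and 1, and 2 arrays against 2 cannot go below 0.33.

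**Figure D3:**
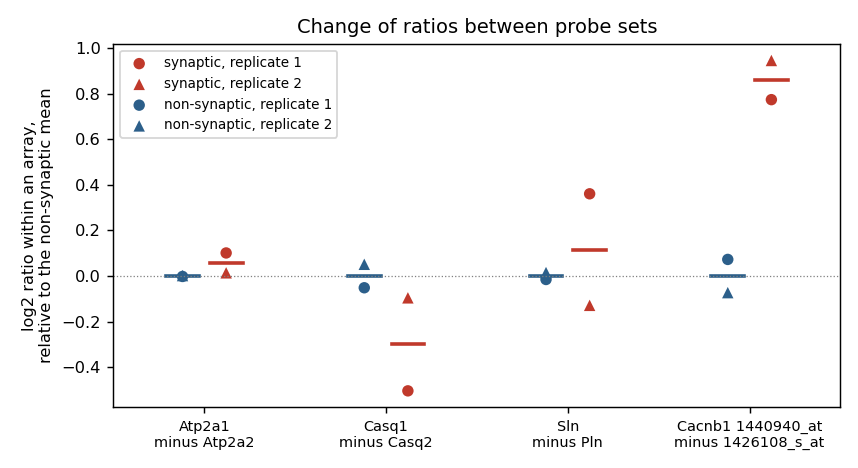
The log2 ratio of 2 probe sets within an array, for 3 planned pairs of genes and 1 pair of Cacnb1 probe sets, as the deviation from the mean of the non-synaptic arrays, with bars at the region means. The Cacnb1 pair, chosen after the values were seen for its opposite differences, is 0.86 higher in the synaptic region, and the shifts of the planned gene pairs are from -0.30 to 0.12, with the synaptic arrays further apart than the non-synaptic ones.

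Markers of fibre type were read on the same arrays, and the fast ones reached further below 0 than the members did. Of 9 measured slow fibre genes 0 had the regions apart, and the median difference was 0.05, with Myh7, the slow myosin, at -0.05 ± 0.18. Of 13 measured fast fibre genes 3 were lower on both synaptic arrays and 0 higher, beside 9.85% and 10.6% of all genes. The median of the fast fibre genes was 0.05. By limma 0 of the slow or fast genes passed. An unadjusted p under 0.05 was found for 2 of the 13 fast genes, both lower. The share over all probe sets was 0.986%, both directions together. The 3 lower ones were the fast myosin Myh4 at -1.32 ± 0.18 (limma adjusted p = 0.492), the myosin-binding protein Mybpc2 at -0.58 ± 0.19 and the actinin Actn3 at -0.18 ± 0.14. Atp2a1 and Casq1, also known from fast fibres, had differences of 0.05 and -0.04, with intervals whose lower ends were -0.32 and -0.41. Whether their differences depart from that of Myh4 was not tested.

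The genes that work with the members at the triad were read from a list of 33, of which 29 were measured. By limma, 0 passed over all probe sets and 0 had an unadjusted p under 0.05, and the median difference was -0.04, where over 12363 genes the median was 0.005. Both synaptic arrays were above both others for 3 of the 29 (Fkbp1a, Mrln and Mtm1) and below for 4 (Bin1, Jph1, Ank1 and Stac2), beside 10.6% and 9.85% of all genes. Those with the highest signal were Srl, which encodes the calcium-binding sarcalumenin of the store, at 0.03 ± 0.14, triadin (Trdn), which links the release channel to calsequestrin, at 0.08 ± 0.26, the store protein Hrc at -0.09 ± 0.15 and Asph, which encodes junctin among other products, at 0.08 ± 0.18. The smallest unadjusted p were those of Stac2, a relative of the triad adaptor Stac3, at -0.71 ± 0.37, of Ank1, whose short form ties the store to the sarcomere, at -0.31 ± 0.17, and of the pump inhibitor Mrln at 0.25 ± 0.20. Stac2 read 410 and 575 in the synaptic region and 687 and 924 in the other, close to the filter, and its interval of -1.65 to 0.22 covered 0.

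Calcium entry, buffering and extrusion were read from 23 genes, of which 16 were measured and 0 passed the limma test, with 0 at an unadjusted p under 0.05. The median difference was 0.10, with 3 genes higher (Micu2, Slc8a3 and Slc8a1) and 1 lower (Micu3) on both synaptic arrays. The shares over all genes were 10.6% and 9.85%. The cytosolic buffer Pvalb, also counted among the fast fibre genes, differed by 0.05 ± 0.17, the entry channel Orai1 by 0.12 ± 0.28, its store sensor Stim1 by 0.18 ± 0.29 and the surface pump Atp2b1 by 0.005 ± 0.27. Synaptic and non-synaptic replicate 1 were the highest arrays for Orai1 and for Stim1, as they were for Cacng1. The sodium-calcium exchanger Slc8a1 had the smallest unadjusted p of the list, with 744 and 778 against 597 and 515 and a difference of 0.46 ± 0.31. Micu2, which regulates calcium uptake by mitochondria, differed by 0.18 ± 0.17 and the inositol trisphosphate receptor Itpr3 by 0.28 ± 0.30.

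Other relatives of the members and of the triad gene Cacna2d1, labelled in the figure as paralogues of other tissues, were mostly dim. Whether their signal came from other tissues or from muscle fibres was not tested. Of 25 genes 16 were measured, and by limma 0 passed and 0 had an unadjusted p under 0.05, with a median of -0.21. Both synaptic arrays were lower for 5 (Cacng6, Cacna1a, Cacna2d2, Cacna1d and Cacng5) and higher for 1 (Cacna2d4), beside 9.85% and 10.6% of all genes. Cacng6 differed by -0.30 ± 0.19, the pump Atp2a3 by -0.16 ± 0.21, Cacng7 by 0.05 ± 0.27 and the release channel Ryr3 by -0.001 ± 0.22. Cacna1a, the pore subunit of the channel that opens at motor nerve terminals, read 752 and 359 in the synaptic region and 1200 and 1024 in the non-synaptic region. It was lower on both synaptic arrays, with a difference of -1.09 ± 0.44 and an interval of -2.22 to 0.03. The value of 359, on synaptic replicate 2, was dimmer than the filter. Cacna2d4 differed by 0.75 ± 0.44, with 510 and 934 against 455 and 368, which are values around the filter.

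**Figure D4:**
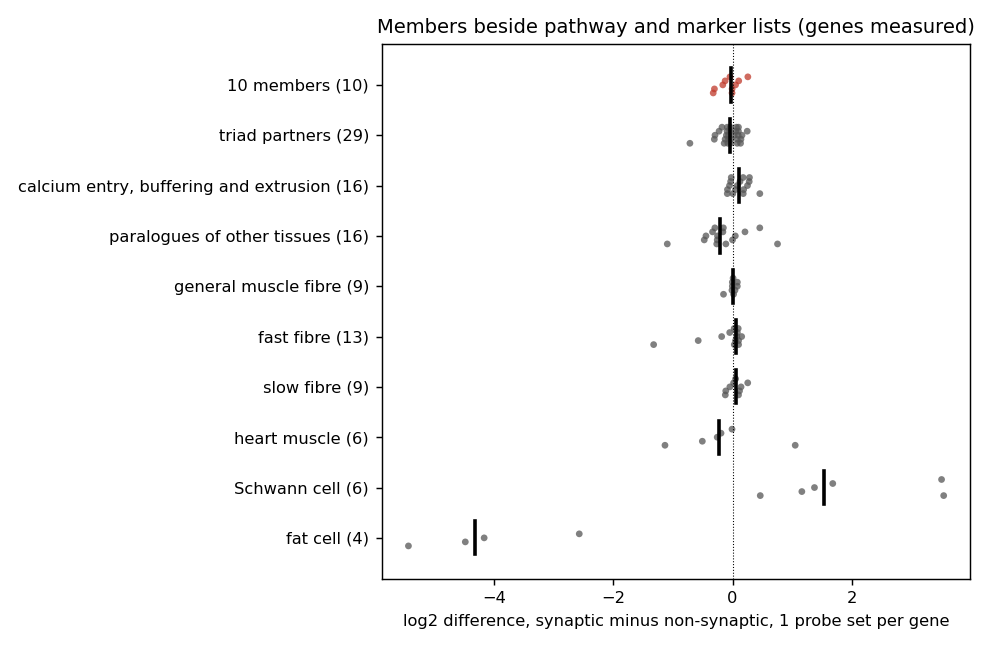
The log2 difference between regions of each measured gene (1 probe set per gene) in the 10 members, in 3 pathway lists and in 6 marker lists, with the median of each list as a bar. The members lie between -0.32 and 0.26, while Schwann cell genes lie between 0.46 and 3.54 and fat cell genes between -5.43 and -2.57.

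Markers of other cells that express some of the members did not pass. The 6 measured heart muscle genes, relevant to Casq2, Pln and Atp2a2, had a median of -0.23, with 0 having the regions apart. They ran from -1.13 ± 0.96 (Myh6) to 1.05 ± 0.54 (Tnnt2). Their sums were 20191 and 35523 in the synaptic region against 25360 and 35101. The 6 measured smooth muscle genes had a median of -0.13, with Myh11 (-0.77 ± 0.30) and Tagln (-0.34 ± 0.18) lower on both synaptic arrays. The 4 of developing or regenerating fibres had a median of -0.08, but Myh3 was higher on both synaptic arrays, at 1.45 ± 0.28. Myh8, Myog and Myod1 were at -0.12, -0.12 and -0.05, with the regions overlapping. The medians of endothelium, fibroblasts and macrophages were -0.19, -0.04 and -0.06, with Cdh5 alone having the regions apart among them. Over all genes, 10.6% had both synaptic arrays above both others and 9.85% below. In these 6 lists 0 genes passed the limma test, with 1 higher (Myh3) and 1 lower (Myh11) at an unadjusted p under 0.05. Over all probe sets that share was 0.986%, both directions together.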

How the data were processed

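Transcripts were measured on 4 arrays, 2 per region. The deposited values are linear intensities, 1 per probe set. The scanner, the summary and the scaling were not given in the sources used here. Precision is limited by the number of arrays.

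Intensities below 159, the 20th percentile, were set to that value before taking log2. Probe sets with a mean log2 value under 8.87, the 40th percentile, were left out, with 64 controls. Regions were compared over 26480 probe sets with limma 3.58.1 in R 4.3.3 (lmFit, eBayes with an intensity trend, two-sided, Benjamini-Hochberg, threshold 0.05, 2 residual degrees of freedom). Standard errors and 95% intervals are moderated. Permutation tests used scipy 1.17.1. The scheme was tested on simulated data.

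By the platform annotation, which can be old, 34958 probe sets had 1 gene, 932 several and 9211 none. Members were matched by its symbol. List genes were named through Entrez identifiers in RefSeq (34754 probe sets matched), and each was read from its probe set with the highest mean. Named beside the members were, per pathway list, the 4 genes of highest mean and the 3 of smallest unadjusted p, and genes past the threshold. Other list genes were named after their values were seen. Members and lists were chosen with earlier results of these data known. Alternatives were other normalizations, filters, floors, priors, thresholds, a replicate block, leaving out arrays, and other probe set choices.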

Additional observations from a re-analysis of the deposited data

How the results depend on the processing

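Under 15 alternatives 0 member probe sets passed the threshold, and the lowest adjusted p of a member by limma was 0.554. Of the 20 differences, 14 changed sign in some alternative, 3 of them in alternatives that kept the 4 arrays, and 6 did not: 1 each of Ryr1 (1457347_at) and Cacna1s and 2 each of Cacnb1 and Pln. Over the alternatives the differences ran from -0.92 to 0.86. Among the alternatives that kept the 4 arrays, only quantile normalization and median centring changed these values. The others left them as they were and could not change a sign. At the gene level, the mean of all measured probe sets was tried in place of the brightest one. It changed the sign for Ryr1 (0.10 to -0.02), Cacnb1 (-0.30 to 0.08) and Sln (-0.01 to 0.11), while the other members kept theirs. The Sln to Pln shift went from 0.12 to 0.28 and the Atp2a1 to Atp2a2 shift from 0.06 to 0.08. Leaving out 1 array, a count of regions apart rose from 4 to between 10 and 13, since 2 arrays against 1 overlap less often.

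Over all probe sets, the higher count of 1 became 6 with median centring and at an adjusted p under 0.10, 3 with the filter at the 60th percentile, and 0 with no filter, no intensity trend or an unmoderated test. The lower count of 2 became 0 in those last 3 and 1 with the floor at the 40th percentile. Counts without 1 array ran from 0 to 6 higher and from 0 to 5 lower. The cause was not tested. With the replicate block they were 56 and 18, with 0 members and a lowest member adjusted p of 0.554 (Cacnb1 1440940_at). The standard error of Sln 1420883_at fell from 0.56 to 0.20 and that of Cacng1 from 0.51 to 0.13, so the width of their intervals depends on the block. The deviations of same-numbered arrays correlated at 0.63, but the labels do not explain the number. Same-numbered arrays lay a median of 0.20 and 0.16 log2 units apart. Arrays of the same region lay 0.35 (synaptic) and 0.30 (non-synaptic) apart, and the remaining pairs 0.36 and 0.30. Dim probe sets such as those of Pln, and 2 arrays per region, limit what can be seen.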
